A study of Mus musculus with 8 samples.

Results

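TRBV10, TRBV15, TRBV16, TRBV17 and TRBV20 are 5 of the 22 names under which beta chain V segments were listed in paired T cell receptor (TCR) sequences of brain T cells. The members were all assembled beta chains with one of these V calls in 4 single-cell TCR libraries. They were found in 467 of 2920 cells with a beta chain, as 470 chains in 303 of 1649 clonotypes, a clonotype being a group of cells that share their TCR chains. CD45+ cells were sorted from the brains of male C57BL/6 mice 2 months after traumatic brain injury (TBI) by controlled cortical impact, and TCR transcripts were amplified with the 10x 5' immune profiling kit. YTBI_Isotype and YTBI_aCD49d were mice injured at 13 to 15 weeks of age, and ATBI_Isotype and ATBI_aCD49d were mice injured at 80 to 82 weeks. All 4 groups were injured, so no uninjured brain is in the comparison. The aCD49d groups received 300 µg of an antibody to CD49d, the alpha 4 integrin subunit used by leukocytes to enter tissue, and the isotype groups a control antibody, first 2 h after injury and then every 2 weeks. Each group was 1 library of 2 pooled mice with about 5000 cells loaded, and aged and young mice came from different suppliers, so age and source cannot be told apart.

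A TCR beta gene is assembled in the thymus from 1 V, 1 D and 1 J segment. The enzyme RAG cuts beside each segment at a recombination signal, made of a conserved heptamer and nonamer with a spacer between them. The ends are then trimmed and joined with added bases, and this junction is the third complementarity-determining region (CDR3), which contacts the presented peptide. T cells with TRBV16 (older name V beta 11) and TRBV15 (V beta 12) are known to be removed in mouse strains that carry the class II molecule I-E together with certain viral superantigens. C57BL/6 mice lack I-E. Cells that descend from 1 T cell carry the same junction, so repeated junctions in separate cells mark a clone.

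With 1 library per group there was no replicate and no test. Intervals are exact Clopper-Pearson 95% intervals, or Newcombe intervals built from them for a difference. They cover counting error only, treat cells as independent although cells of a clone are not, and do not hold the variation between mice. The libraries held 252 to 1102 cells with a beta chain and 4473 to 18415 TCR UMIs (unique molecular identifiers). A single cell thus made up between 0.0907% and 0.397% of a library. Every member chain rested on at least 2 UMIs, and the median per member chain lay between 10 and 14 UMIs, beside 6 to 11 for the other beta chains. No member cell had a cell barcode that occurred in another library.

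The name TRBV10 did not match the gene of that name. All 164 chains called TRBV10 carried 1 identical V region of 270 bases, which occurred once on chromosome 6 of GRCm38, at chr6:41059600-41059869 on the plus strand. GENCODE annotates there the functional gene Trbv4 (chr6:41059394-41059886, older name Tcrb-V10), between Trbv3 and Trbv5. The gene that GENCODE calls Trbv10 is a pseudogene at chr6:41091940-41092228. Of the 259 words of 12 bases in the chain, 259 were found in Trbv4 and 0 in Trbv10, and 0 chains were called TRBV4 in the files. The segment lies upstream of the other 4, as the pseudogene Trbv10 also does. The segment is called TRBV10 here as in the files. Of the 21 calls to a single gene, 20 matched the gene of their own name.

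The other 4 segments matched their own genes on the plus strand. TRBV15 is at chr6:41141188-41141658, TRBV16 at chr6:41151740-41152230, TRBV17 at chr6:41163062-41163556 and TRBV20 at chr6:41188273-41188977. Every one of the 470 member chains carried the commonest V region of its segment. TRBV15 and TRBV16 were the most alike pair, with 72.63% identical bases over their aligned V regions of 273 bases each. The other 9 pairs were 48.0% to 57.3% identical.

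The germline ends of the 5 segments show what the junctions started from. Each run opens at the cysteine codon where the CDR3 begins, and the capitals mark the heptamer and the nonamer of the recombination signal, separated by a spacer of 23 bases (GRCm38, plus strand).

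TRBV10: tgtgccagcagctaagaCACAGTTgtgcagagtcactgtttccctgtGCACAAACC
TRBV15: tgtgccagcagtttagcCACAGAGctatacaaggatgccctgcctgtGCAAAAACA
TRBV16: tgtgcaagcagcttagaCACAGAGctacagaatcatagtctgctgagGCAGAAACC
TRBV17: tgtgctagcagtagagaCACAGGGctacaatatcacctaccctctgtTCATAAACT
TRBV20: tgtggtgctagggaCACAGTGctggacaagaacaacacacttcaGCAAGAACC

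TRBV20 was the only one of the 5 with the heptamer CACAGTG, read on the strand of the gene, which 7 of the 21 V genes in the files carried (33.3%). TRBV20 also had the shortest germline CDR3 part, of 14 bases beside 17 in the other 4. The TRBV10 end holds a stop codon in the reading frame of the CDR3, at bases 13 to 15 of the run. It was 1 of 21 V genes (4.76%) with such a stop, and the files list productive chains only.

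By clonotypes, the 5 segments together took nearly equal shares of the 4 libraries. In the young mice they made up 18.2% of the beta clonotypes of YTBI_Isotype (40 of 220) and 18.1% of those of YTBI_aCD49d (82 of 453). In the aged mice they made up 18.3% of those of ATBI_Isotype (82 of 449) and 18.8% of those of ATBI_aCD49d (99 of 527). ATBI_Isotype lay 0.523 points below ATBI_aCD49d, with an interval of the difference from 5.52 below to 4.54 above. YTBI_Isotype lay 0.0803 points above YTBI_aCD49d, with an interval from 6.13 below to 6.77 above.

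TRBV16 was the commonest of the 5 and the seventh of the 22 V calls, with 103 clonotypes (6.25% of all, interval 5.13 to 7.52%). Its share was 6.36% for YTBI_Isotype and 5.96% for YTBI_aCD49d, and in the aged mice 6.01% for ATBI_Isotype and 6.64% for ATBI_aCD49d. All 4 values lay within each other's intervals. TRBV10 followed with 68 clonotypes (4.12%), at 5.0%, 4.19%, 3.79% and 3.98% of the same libraries in that order. TRBV15 had 52 clonotypes (3.15%), at 1.36%, 2.21%, 3.79% and 4.17%. TRBV20 had 43 (2.61%), at 2.27%, 2.87%, 2.67% and 2.47%. TRBV17 had 40 (2.43%), at 3.18%, 2.87%, 2.0% and 2.09%. In the order of the totals, the intervals of neighbours below TRBV16 overlapped, and that of TRBV16 (from 5.13%) overlapped narrowly with that of TRBV10 (up to 5.20%).

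TRBV15 had its higher clonotype shares in both aged libraries and its lower ones in both young libraries, and TRBV17 the reverse. The intervals of these differences included 0. For TRBV15, ATBI_Isotype exceeded YTBI_Isotype by 2.42 points (interval 0.586 below to 4.88 above 0) and ATBI_aCD49d exceeded YTBI_aCD49d by 1.97 points (0.413 below to 4.34 above 0). None of the 5 segments had a clonotype share whose interval of the difference left out 0 in any of the 4 comparisons. Over all V calls that share was 9.09% for ATBI_Isotype against ATBI_aCD49d, 13.6% for YTBI_Isotype against YTBI_aCD49d, 14.3% for ATBI_Isotype against YTBI_Isotype and 9.09% for ATBI_aCD49d against YTBI_aCD49d. The V call with the clonotype shares nearest to those of TRBV17 was TRBV20, and the reverse also held, with absolute differences that summed to 1.96 points over the 4 libraries. Nearest to TRBV10 was TRBV14 (3.14 points), to TRBV15 TRBV13-2 (2.28 points) and to TRBV16 TRBV5 (2.53 points), among 19 others with at least 10 clonotypes. TRBV12-1 (3.23 points), TRBV12-2 (3.77), TRBV3 (5.84), TRBV2 (2.19) and TRBV13-2 (2.11) came second for TRBV10, TRBV15, TRBV16, TRBV17 and TRBV20.

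**Figure D1:**
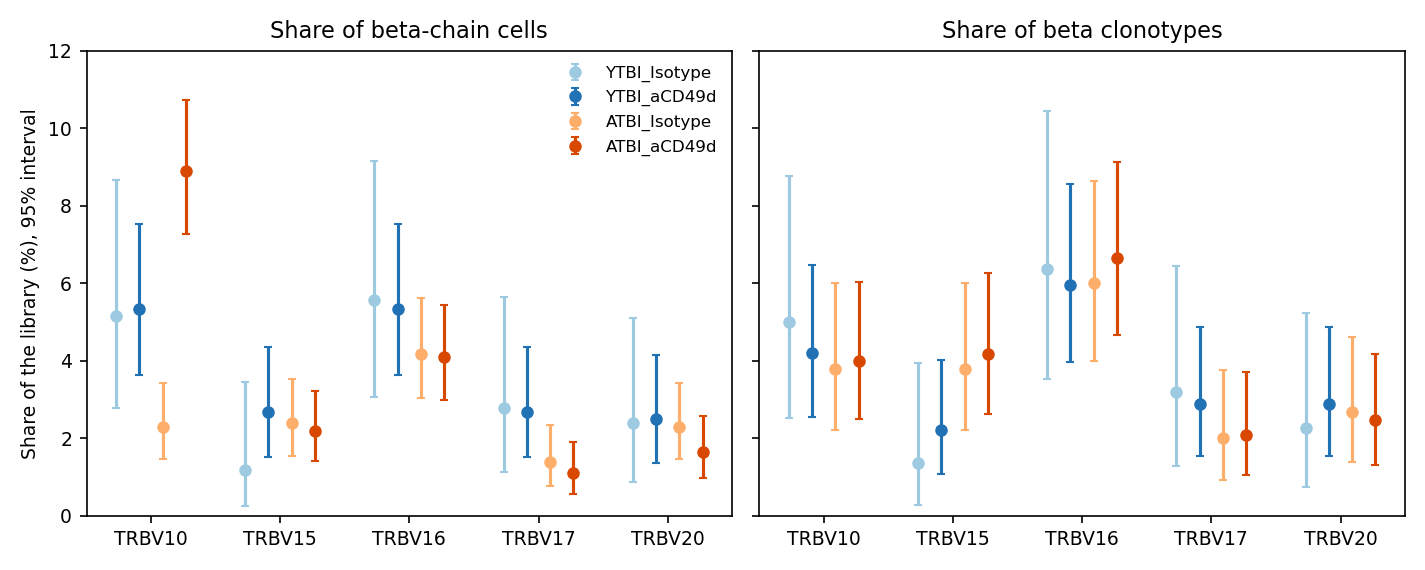
Share of beta-chain cells (left) and of beta clonotypes (right) with each segment, in % of the library on the y axis; points are the 4 libraries and bars exact 95% intervals. TRBV10 in ATBI_aCD49d stands at 8.89% of cells but at 3.98% of clonotypes, while the clonotype shares of each segment overlap between libraries.

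By cells, the share of TRBV10 departed from its clonotype share in both aged libraries, downwards in ATBI_Isotype and upwards in ATBI_aCD49d. In both young libraries its clonotype share lay within the interval of the cell share. The downward departure was not particular to TRBV10. The clonotype share also lay above the interval of the cell share for TRBV15 and TRBV16 in both aged libraries and for TRBV17 in ATBI_aCD49d. Only TRBV10 in ATBI_aCD49d departed upwards. TRBV10 was carried by 13 of 252 beta-chain cells of YTBI_Isotype (5.16%) and 30 of 562 of YTBI_aCD49d (5.34%). In the aged mice it was carried by 23 of 1004 cells of ATBI_Isotype (2.29%, interval 1.46 to 3.42%) and 98 of 1102 of ATBI_aCD49d (8.89%, interval 7.28 to 10.7%). The share was thus highest in ATBI_aCD49d and lowest in ATBI_Isotype, and the young libraries lay between. ATBI_Isotype was 6.60 points below ATBI_aCD49d (interval 4.63 to 8.62 points). That comparison left out 0 for 54.5% of all V calls, and TRBV10 was the only one of the 5 among them. Without the largest clone of the 5 segments in each library, TRBV10 made up 2.05% of beta-chain cells in ATBI_aCD49d and the difference was 0.256 points in the opposite direction.

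TRBV16 was found in 14, 30, 42 and 45 cells of YTBI_Isotype, YTBI_aCD49d, ATBI_Isotype and ATBI_aCD49d, which made 5.56%, 5.34%, 4.18% and 4.08% of beta-chain cells. TRBV15 was found in 3, 15, 24 and 24 cells (1.19%, 2.67%, 2.39% and 2.18%). TRBV20 was found in 6, 14, 23 and 18 cells (2.38%, 2.49%, 2.29% and 1.63%). For these 3 segments no interval of a difference between libraries left out 0. TRBV17 was found in 7, 15, 14 and 12 cells (2.78%, 2.67%, 1.39% and 1.09%), lower in both aged libraries than in both young ones. The interval left out 0 between ATBI_aCD49d and YTBI_aCD49d (1.58 points lower, interval 0.162 to 3.35), but not between ATBI_Isotype and YTBI_Isotype (1.38 points lower, interval from 4.31 below to 0.516 above). The shares of all V calls whose cell intervals left out 0 were 36.4% for ATBI_aCD49d against YTBI_aCD49d (TRBV10 and TRBV17 among them), 38.1% for ATBI_Isotype against YTBI_Isotype (TRBV10 only) and 9.09% for YTBI_Isotype against YTBI_aCD49d (none of the 5). TRBV10 cells were 2.87 points fewer in ATBI_Isotype than in YTBI_Isotype (interval 0.231 to 6.47). They were 3.55 points more in ATBI_aCD49d than in YTBI_aCD49d (interval 0.830 to 6.06), a direction that turned to 1.57 points fewer without the largest clone of each library.

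Of the 467 cells, 126 were in ATBI_Isotype and 194 in ATBI_aCD49d, and the clone sizes behind these counts differed between segments. The junctions of the clones with at least 10 cells and of the largest clone of each other segment are given as DNA. TRBV20 had a tie for its largest, and the junction of the tied clone in ATBI_aCD49d is given further on. Capitals mark the bases that match neither the germline V end nor the germline J end, so they hold the D segment and added bases.

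TRBV10 clone of ATBI_aCD49d: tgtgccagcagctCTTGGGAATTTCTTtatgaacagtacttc
TRBV10 clone of YTBI_aCD49d: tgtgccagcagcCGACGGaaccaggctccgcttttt
TRBV15 clone of YTBI_aCD49d: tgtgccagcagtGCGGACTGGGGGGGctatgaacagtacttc
TRBV16 clone of ATBI_aCD49d: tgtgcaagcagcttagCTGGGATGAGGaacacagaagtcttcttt
TRBV17 clone of ATBI_Isotype: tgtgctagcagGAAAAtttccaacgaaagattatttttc
TRBV20 clone of ATBI_Isotype: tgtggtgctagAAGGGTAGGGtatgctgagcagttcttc

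The first of these was the second largest clonotype of its library, behind one of 101 cells, and the largest of the 5 segments. It held 78 cells, 6.95% of the cells with a TCR in ATBI_aCD49d (interval 5.53 to 8.59%). TRBV10 was joined to TRBJ2-7 in its beta chain, which was recovered in 77 cells, and TRAV9-4 to TRAJ34 in its alpha chain, recovered in 68 cells. Both chains were recovered in 67 cells, the beta chain alone in 10 and the alpha chain alone in 1. All copies had 1 beta and 1 alpha junction. The beta chain rested on 3 to 28 UMIs per cell with a median of 12, beside a median of 10 for the other TRBV10 cells of the library.

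The clone made up 78.6% of the 98 TRBV10 cells and 39.7% of the 194 cells of the 5 segments in ATBI_aCD49d. The other 20 TRBV10 clonotypes of that library held 21 cells. The other 4 clonotypes with the same V and J and a CDR3 of the same 14 residues were 1 cell each in the isotype libraries, and they differed from it at 12 or more of its 42 bases. Its alpha junction is printed to identify the pair.

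Alpha chain of the TRBV10 clone of ATBI_aCD49d: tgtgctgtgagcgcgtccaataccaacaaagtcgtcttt

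The second clone with at least 10 cells was also TRBV10. It had exactly 10 cells in YTBI_aCD49d (1.73% of cells with a TCR, interval 0.834 to 3.16%), joined TRBV10 to TRBJ1-5, and paired in 9 cells with TRAV10N and TRAJ13. It made up 33.3% of the TRBV10 cells there. In both isotype libraries the largest TRBV10 clonotype was smaller, with 2 cells in YTBI_Isotype and 3 in ATBI_Isotype. The large TRBV10 clones were thus both in aCD49d libraries, with 1 library per group and different junctions.

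The remaining segments had smaller clones. The largest of TRBV15 had 6 cells in YTBI_aCD49d (TRBJ2-7 with TRAV7D-2), 40% of the TRBV15 cells of that library. The largest of TRBV16 had 7 cells in ATBI_aCD49d (TRBJ1-1 with TRAV16N). The tied TRBV20 clones had 7 cells in ATBI_Isotype (TRBJ2-1 with TRAV4D-3) and 7 in ATBI_aCD49d (TRBJ1-4 with TRAV5-4), and in each of them 6 cells showed the TRBV20 chain. The one in ATBI_aCD49d also carried a TRBV1 chain and is described with the cells that had a pair of beta chains. A further TRBV20 clone of ATBI_Isotype had 5 cells and also paired with TRAV4D-3, but with TRAJ13 in place of TRAJ21 (in 4 cells) and with TRBJ2-7. In 2 of its cells TRAV12D-2 joined to TRAJ13 was found. TRBV17 had no clone above 4 cells (TRBJ1-4 with TRAV16, in ATBI_Isotype).

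**Figure D2:**
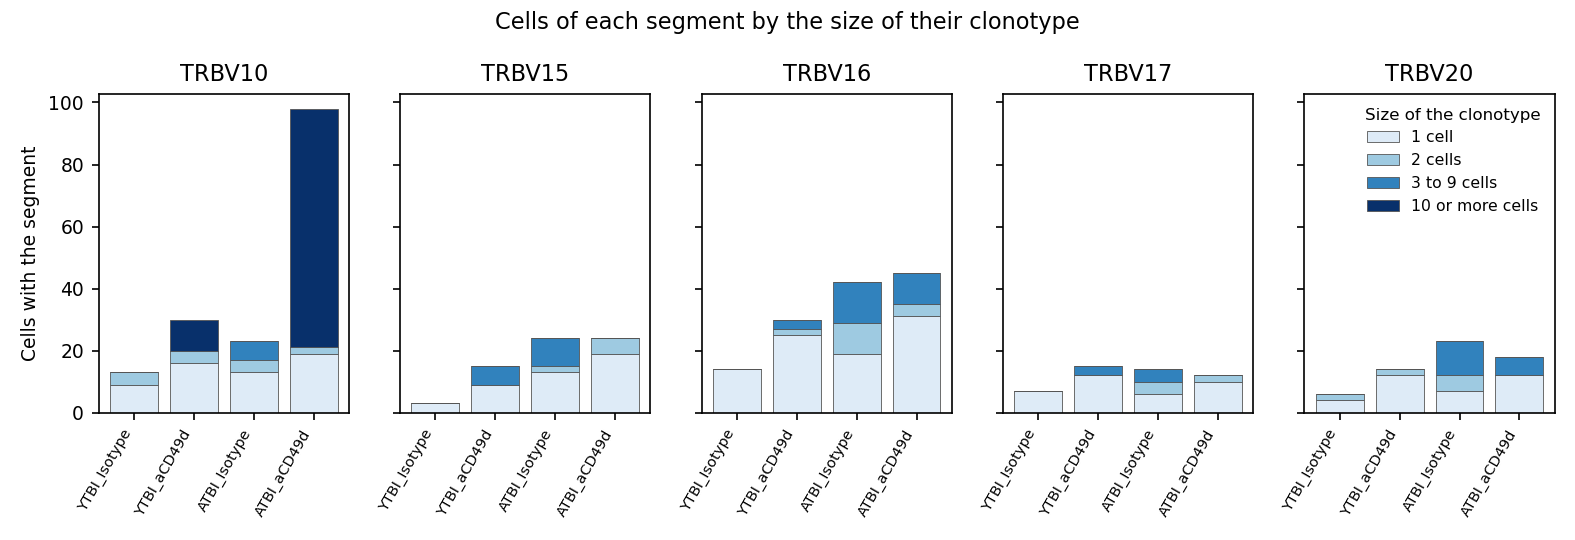
Number of cells (y axis) with each segment in each library, split by the size of their clonotype. The dark block of TRBV10 in ATBI_aCD49d is the 78-cell clone, seen through the 77 cells with its beta chain, and TRBV15 to TRBV20 have no clone of 10 or more cells.

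Cells in clonotypes of at least 2 cells, called clonal cells, made up 14.0% of the cells of the 5 segments in YTBI_Isotype (6 of 43) and 28.8% of those in YTBI_aCD49d (30 of 104). In the aged mice they made up 54.0% of those in ATBI_Isotype (68 of 126) and 54.6% of those in ATBI_aCD49d (106 of 194). Both aged libraries lay above both young ones. ATBI_Isotype exceeded YTBI_Isotype by 40.01 points (interval 23.3 to 52.4), and ATBI_aCD49d exceeded YTBI_aCD49d by 25.8 points (interval 13.7 to 36.9). Without the largest clone of each library the latter pair stood at 24.8% (29 of 117) and 21.3% (20 of 94), a difference of 3.51 points. The aged libraries also held more cells, and more cells give more repeats. With every library thinned to 252 beta-chain cells, the expected clonal share was 14.0% in YTBI_Isotype, which is the smallest library, and 22.5% in YTBI_aCD49d. In the aged mice it was 24.8% for ATBI_Isotype and 47.0% for ATBI_aCD49d. At an equal number of beta-chain cells, ATBI_Isotype thus stood close to YTBI_aCD49d, with UMIs per cell and alpha recovery not matched.

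In cells with the other V segments the clonal share was 21.1%, 25.8%, 65.3% and 60.6% in the same order. The 5 segments were 11.3 points below them in ATBI_Isotype (interval 1.81 to 20.9), and the intervals included 0 in the other 3 libraries. With the largest clone left out on both sides, the difference in ATBI_Isotype was 8.83 points, 51.7% against 60.5% (467 of 772), and its interval included 0 (1.05 below to 18.8 above). In ATBI_aCD49d it was then 30.9 points (interval 21.3 to 39.1), 24.8% against 55.6% (449 of 807). With all clones it was 5.93 points there (interval 1.92 below to 13.9 above). This removal was chosen after the data were seen. It took 77 of the 194 cells of the 5 segments and 101 of the 908 other cells. The wider gap thus follows from leaving out the 78-cell clone and is no separate result. Leaving out the largest clone of the 5 segments lowered the clonal share in ATBI_aCD49d to 24.8% (29 of 117 cells) and in ATBI_Isotype to 51.7% (62 of 120).

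**Figure D3:**
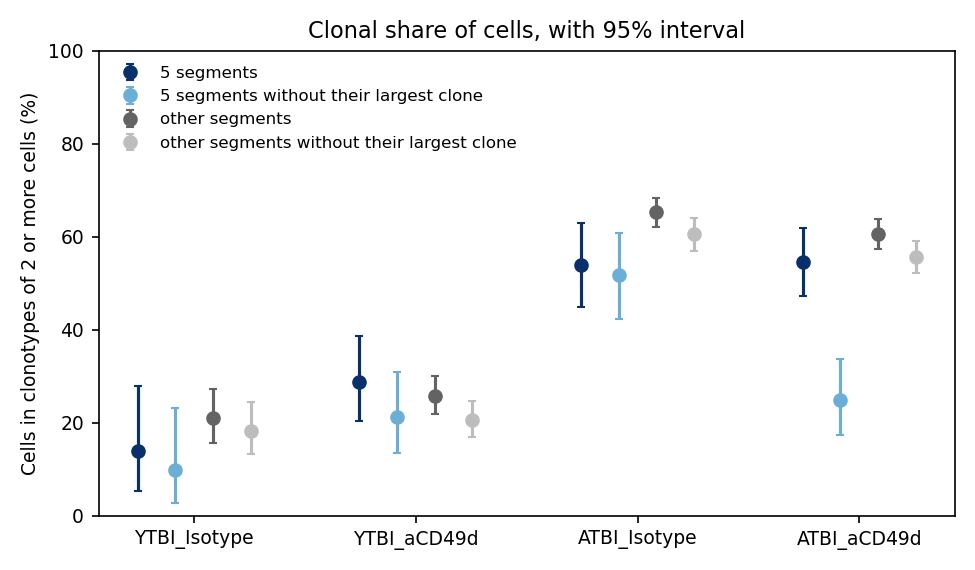
Share of cells in clonotypes of 2 or more cells (y axis, %) for the 5 segments, the other V segments, and both without their largest clone in each library; bars are exact 95% intervals. Without the 78-cell clone the value of ATBI_aCD49d falls from 54.6% to 24.8%. Without its own largest clone that of ATBI_Isotype goes from 54.0% to 51.7%.

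Counted by clonotypes, where a large clone weighs no more than a small one, the share with at least 2 cells was 7.5% for YTBI_Isotype (3 of 40) and 9.76% for YTBI_aCD49d (8 of 82). It was 29.3% for ATBI_Isotype (24 of 82) and 11.1% for ATBI_aCD49d (11 of 99). ATBI_Isotype stood above the other 3 libraries. It held 1004 beta-chain cells, beside 252 in YTBI_Isotype and 562 in YTBI_aCD49d, and more cells give more repeats. No value at an equal number of cells is given for this share, so its distance from the young libraries is not matched for depth. ATBI_Isotype exceeded ATBI_aCD49d, which held 1102 such cells, by 18.2 points (interval 5.78 to 30.5). For the other V segments the same difference was 0.539 points (16.9% against 16.4%, interval from 4.79 below to 5.95 above). Within ATBI_Isotype the 5 segments exceeded the others by 12.4 points (interval 1.94 to 24.1). Within ATBI_aCD49d they were 5.24 points below the others (interval 11.9 below to 3.35 above). They were 0.833 points below in YTBI_Isotype (interval 8.61 below to 12.5 above). In YTBI_aCD49d they were 1.40 points above (interval 4.97 below to 10.4 above).

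Each of the 5 segments had the higher share in ATBI_Isotype of the aged libraries. The segments come from the same pair of libraries, so they are no repeats of the comparison. TRBV10 had 4 of 17 clonal clonotypes in ATBI_Isotype and 2 of 21 in ATBI_aCD49d. TRBV16 had 8 of 27 and 4 of 35. TRBV20 had 5 of 12 and 1 of 13, TRBV17 3 of 9 and 1 of 11, and TRBV15 4 of 17 and 3 of 22. In ATBI_Isotype 66.7% of the cells of the 5 segments had an alpha chain, beside 88.7% in ATBI_aCD49d. Counted over cells with both chains only, the shares were 30.4% (17 of 56) and 11.4% (10 of 88). With clonotypes defined by the junctions of both chains they were 20.6% (20 of 97) and 11% (11 of 100), a difference smaller by more than 1.5 times. No interval is given for that smaller difference, and the interval of 5.78 to 30.5 points does not carry over to this definition.

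CDR3 lengths were much alike, and the amount of the germline V end that remained is given for each segment. The figures that follow count clonotypes per segment, 306 in all, since 3 clonotypes carried a pair of the segments. The median CDR3 was 14 residues for TRBV10, TRBV15, TRBV16 and TRBV17 and 13 for TRBV20, beside 14 for the other V segments. The means were 13.5 ± 1.45 (SD, n = 68 clonotypes) for TRBV10, 13.9 ± 1.54 (n = 52) for TRBV15, 14.1 ± 1.34 (n = 103) for TRBV16, 14.2 ± 1.51 (n = 40) for TRBV17 and 13.4 ± 1.23 (n = 43) for TRBV20. Between 80.9% (TRBV10) and 95.3% (TRBV20) of clonotypes had 12 to 15 residues, and the whole range was 10 to 19.

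TRBV10 kept between 9 and 14 of its 17 germline CDR3 bases, with a median of 12. The longest part kept ended 1 base short of completing the germline stop codon. A chain with the whole V end would hold that stop and would not be listed as productive, so a count of 0 of 68 TRBV10 clonotypes with the whole end was fixed by the files and is no comparison with the other segments. TRBV16 kept the whole end in 22 of 103 clonotypes (21.4%), TRBV20 in 13 of 43 (30.2%), TRBV17 in 3 of 40 (7.5%) and TRBV15 in 1 of 52 (1.92%). Over the other V segments the share was 23.6%, and among single ones with at least 10 clonotypes it ran from 1.39% in TRBV31 and 1.85% in TRBV14 to 48.9% in TRBV5. A base that matches the germline by chance counts as kept here, so these are upper values.

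Between the V and J ends lay a median of 11 bases in TRBV10, 10 in TRBV15, TRBV16 and TRBV20 and 9.5 in TRBV17, beside 10 in the other V segments. The stretch was 14 bases in the 78-cell clone and 6 in the 10-cell one. A D segment was called in 25.5% of the members and 24.7% of the other chains, as TRBD1 in 43 and TRBD2 in 35. TRBD2 lies downstream of the TRBJ1 cluster and 0 members joined it to a TRBJ1 segment.

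**Figure D4:**
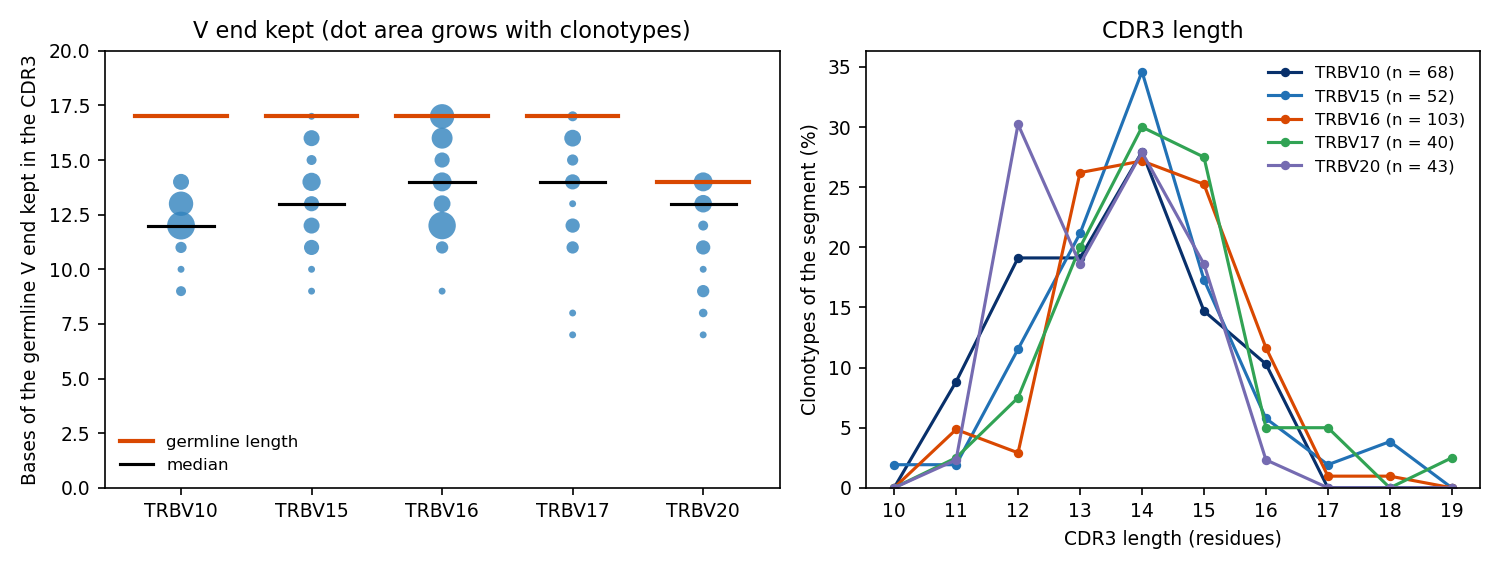
Left, bases of the germline V end kept in the CDR3 (y axis) of each clonotype, with dot area growing with the number of clonotypes, the germline length in orange and the median in black. Right, CDR3 length in residues (x axis) against the share of the clonotypes of each segment (%). TRBV10 dots stop at 14 of 17 bases, and length distributions of the 5 segments overlap.

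TRBJ2-7, the last functional J segment before the second constant gene, was the leading partner of the 5 segments. It took 25.0% of TRBV10 clonotypes (17 of 68), 25.0% of TRBV15 (13 of 52), 24.3% of TRBV16 (25 of 103) and 20.9% of TRBV20 (9 of 43). In TRBV17 it shared the first place with TRBJ2-1, with 7 of 40 each (17.5%). The other V segments joined TRBJ2-7 in 18.4% of cases, 4.76 points fewer than the 5 segments together (interval 0.324 points below 0 to 10.3 above).

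The next partners differed. TRBV10 was followed by TRBJ2-5 (14.7%) and then, with 7 clonotypes each, TRBJ2-1 and TRBJ2-3 (10.3%), TRBV15 by TRBJ1-1 (17.3%) and TRBJ2-1 (13.5%), TRBV16 by TRBJ2-4 (14.6%) and TRBJ2-5 (11.7%), TRBV17 by TRBJ2-2 (15%) and TRBV20 by TRBJ1-4 (16.3%) and then, with 4 clonotypes each, TRBJ1-1, TRBJ2-1 and TRBJ2-2 (9.30%). The intervals on these shares were wide, for instance 6.81 to 30.7% for TRBJ1-4 in TRBV20 and 8.39 to 22.9% for TRBJ2-4 in TRBV16. TRBJ1-5, the J segment of the 10-cell TRBV10 clone, was found in 5 of 306 members, of which 3 were TRBV10 and 2 TRBV16.

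Segments of the TRBJ2 cluster were used by 69.0% of the members and 62.3% of the other chains, a difference of 6.63 points (interval 0.547 to 12.4). Library by library the difference was 16.7 points in ATBI_Isotype (interval 4.53 to 27.4), 6.59 in YTBI_aCD49d, 3.71 in ATBI_aCD49d and 6.05 in the opposite direction in YTBI_Isotype. The intervals of the last 3 included 0. Within the 5 segments the TRBJ2 share ran from 58.1% (TRBV20) to 73.8% (TRBV16).

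**Figure D5:**
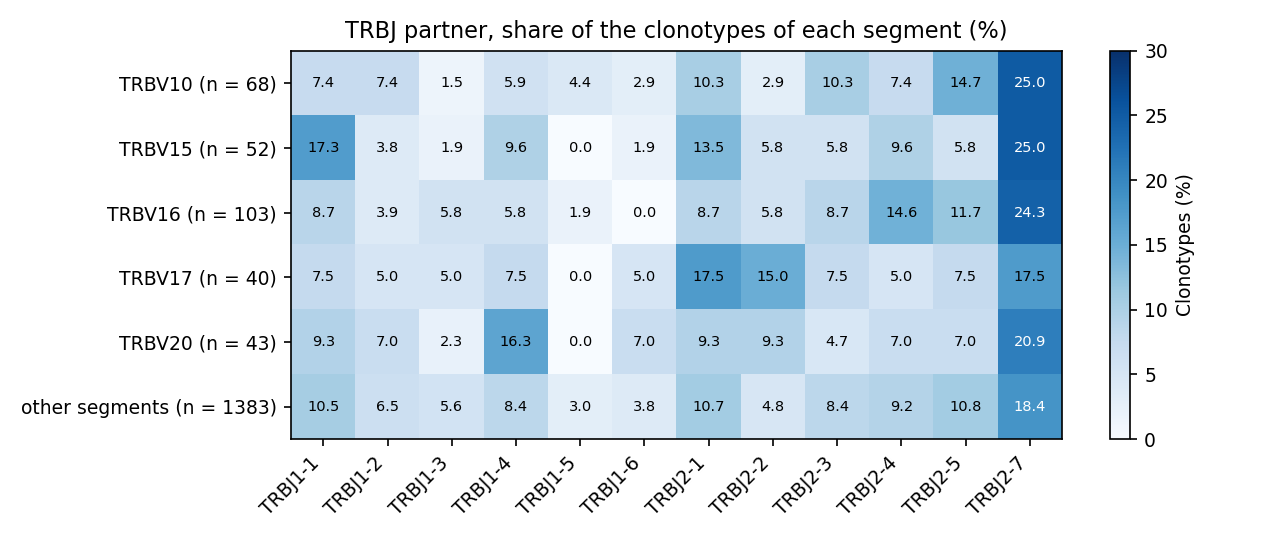
Share of the clonotypes of each segment (rows, number of clonotypes in brackets) joined to each TRBJ segment (columns), in %. The TRBJ2-7 column is the darkest for 4 of the 5 segments and for the other V segments, and TRBV17 divides its first place between TRBJ2-1 and TRBJ2-7 at 17.5% each.

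An alpha chain was recovered for 243 of the 303 clonotypes. No single alpha V gene dominated a segment. TRBV10 paired most often with TRAV10 (5 of 60 clonotypes with an alpha chain) and TRAV12D-3 (4), and 4 genes shared the next place with 3 each. TRBV15 paired with TRAV6N-7 and TRAV7D-2 (4 of 39 each), TRBV16 with TRAV16N (8 of 78), TRBV17 with TRAV16N (4 of 32) and TRBV20 with TRAV10N and TRAV5-4 (3 of 37 each). Mouse TRAV genes occur in near-identical copies marked D and N, so the gene call is less certain than the family. By family, TRAV9 led in TRBV10 (18.3%), TRAV14 in TRBV15 (23.1%), TRAV6 in TRBV16 (15.4%), TRAV16 in TRBV17 (21.9%) and TRAV12 in TRBV20 (16.2%). TRAV16N was found in 7.0% of the clonotypes of the 5 segments (17 of 243, interval 4.13 to 11.0%) and in 2.20% of the others (24 of 1090, interval 1.42 to 3.26%). This gene was singled out after its values were seen, and the shares are pooled over the 4 libraries. More of the 17 clonotypes were in ATBI_aCD49d than in the other libraries together. That library held 88 of the 243 clonotypes with an alpha chain. By family, TRAV16 was found in 9.88% of the clonotypes of the 5 segments (24 of 243). No family value of the others is set beside it.

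Invariant natural killer T cells carry TRAV11 joined to TRAJ18 and recognise lipids on CD1d. That alpha chain was found in 2 of 243 clonotypes (0.823%, interval 0.0998 to 2.94%), both with TRBV17, and in 109 of 1090 clonotypes with other V segments (10.0%, interval 8.28 to 11.9%). The difference was 9.18 points (interval 6.45 to 11.2). In the order YTBI_Isotype, YTBI_aCD49d, ATBI_Isotype and ATBI_aCD49d, the members had 0 of 33, 1 of 66, 0 of 56 and 1 of 88 such clonotypes, and the others 20 of 150, 32 of 298, 21 of 276 and 36 of 366. The members were lower in each library. TRAV1 joined to TRAJ33, the alpha chain of mucosal-associated invariant T cells, was found in 1 member (TRBV20, in ATBI_Isotype) and in 2 of the others.

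A second productive beta chain is rare because a T cell that has made one is kept from rearranging the other allele. Among the cells of the 5 segments, 20 of 467 had at least 2 beta chains (4.28%), beside 27 of 2453 cells of the other segments (1.1%). The first share was the higher in 3 libraries, and in YTBI_aCD49d it was 0 of 104 cells beside 3 of 458 (0.655%). A cell counted for the 5 segments if any of its beta chains carried one, and the part of this counting rule in the difference was not tested. Of the 20, 14 were single cells of 14 clonotypes, and doublets cannot be told apart from them. The other 6 were cells of 1 clonotype of ATBI_aCD49d with 7 cells, all of which carried TRBV1 joined to TRBJ1-5, with TRAV5-4. TRBV20 joined to TRBJ1-4 was found beside it in 6 of the 7. The median was 16 UMIs for the TRBV1 chain and 4 for the TRBV20 chain, with 3 to 14 UMIs per cell. Its junctions follow, capitals as above.

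TRBV1 chain of the clone with a pair of beta chains: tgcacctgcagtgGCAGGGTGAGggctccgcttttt
TRBV20 chain of the clone with a pair of beta chains: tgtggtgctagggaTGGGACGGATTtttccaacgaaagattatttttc

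No member rearrangement was shared between libraries. The number of V, J and CDR3 nucleotide sequences in common was 0 in each of the 6 pairs of libraries, and the large clones were each found in 1 library. Within a library, 4 rearrangements were listed under a pair of clonotypes each. A further 2 pairs of clonotypes, of TRBV16 with TRBJ2-4 in ATBI_aCD49d and of TRBV17 with TRBJ1-3 in YTBI_Isotype, encoded the same CDR3 residues with different bases. The TRBV16 pair is shown because it has 1 residue sequence written in 2 ways.

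TRBV16 first form: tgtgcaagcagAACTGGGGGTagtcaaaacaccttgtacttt
TRBV16 second form: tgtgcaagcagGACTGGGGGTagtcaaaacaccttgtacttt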

How the data were processed

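Single-cell TCR libraries of CD45+ brain cells (10x 5' v2 chemistry) were aligned to mm10 and assembled by the authors with Cell Ranger (version 7.2.0 in the submitters' processing notes). The deposited tables list the assembled chains of each cell (gene calls, junction, counts of reads and UMIs) and each clonotype with its count of cells and, as a fraction of the library, its proportion, both made by the authors. Both units were used as deposited. The RNA libraries of the same cells are not analysed here. Every listed chain was marked productive, full length, of high confidence and from a cell, so out-of-frame rearrangements are not seen.

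Groups were taken from the sample labels. A cell counted for a segment if any of its beta chains carried that call. Clonotypes were the deposited ones, and a clonotype's junction its most abundant one. Exact intervals were computed with scipy 1.17.1. The V regions were matched to chromosome 6 of GRCm38 with GENCODE annotation, older names came from RefSeq, and junctions were read against the germline V and J ends. Thinning used the exact hypergeometric expectation. Interval and thinning code was tested on simulated data. Named were all 5 segments, their leading J and alpha V genes, clonotypes of at least 10 cells and the largest of each segment. The members and lists were chosen with earlier results of these data known. Alternatives changed the cells counted, the clonotype definition, the denominator and the largest clone.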

Additional observations from a re-analysis of the deposited data

Results flagged for a closer look

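For some values, isotype lay above aCD49d at 1 age and below it at the other. None of these contrasts was tested, since each value compares 1 library with 1 library, and every interval of these single differences included 0. All are given as isotype minus aCD49d in percentage points of the library.

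By cells, TRBV15 was 0.213 points higher in the aged pair and -1.48 points in the young pair. TRBV20 by cells was 0.657 in the aged and -0.110 in the young pair. By clonotypes, the 5 segments together stood at -0.523 in the aged and 0.0803 in the young pair. TRBV10 clonotypes stood at -0.199 and 0.806, TRBV16 clonotypes at -0.628 and 0.403, and TRBV17 clonotypes at -0.0828 and 0.312. TRBV20 clonotypes went the other way, at 0.206 in the aged and -0.597 in the young pair.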

How the results depend on the processing

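No paired analysis was possible because there was only 1 library per group. For the same reason no library was left out in turn. Of 733 values recomputed under an alternative, 711 stayed within the counting interval of the reported value. Several of the others rest on the 78-cell TRBV10 clone. Without the largest clone of the 5 segments in each library, their share of beta-chain cells in ATBI_aCD49d was 11.4%, the difference of ATBI_Isotype minus ATBI_aCD49d turned to 0.609 points (for TRBV10 alone 0.256), and that of ATBI_aCD49d minus YTBI_aCD49d was -5.61 points (for TRBV10 alone -1.57). The clonal share of cells in ATBI_aCD49d was then 24.8%, 26.9 points below ATBI_Isotype, and ATBI_aCD49d exceeded YTBI_aCD49d by 3.51 points. With the largest clone left out on both sides, an alternative chosen after seeing the data, the other V segments exceeded the 5 segments there by 30.9 points. That gap follows from leaving out the 78-cell clone and is no separate result.

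The clonal share of cells also depended on depth and definition. Thinned to 252 beta-chain cells, it was 24.8% in ATBI_Isotype and 47.0% in ATBI_aCD49d. The difference between these was then -22.2 points and that of ATBI_Isotype minus YTBI_Isotype 10.9 points. With clonotypes defined by both chains, it was 38.9% in ATBI_Isotype and 4.65% in YTBI_Isotype, and ATBI_Isotype minus ATBI_aCD49d was -15.2 points. With a minimum of 3 cells it was 34.1% in ATBI_Isotype and 47.9% in ATBI_aCD49d, a difference of -13.8 points, and 0% in YTBI_Isotype (0 of 43 cells). The clonal share of clonotypes, whose alternatives were chosen after seeing the data, ran from 20.6% to 30.4% in ATBI_Isotype and from 10.2% to 11.4% in ATBI_aCD49d.

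The young libraries limit what can be seen. A count of 0 among the beta-chain cells of YTBI_Isotype allows a share of up to 1.19% (taken as 3 cells, not as a Clopper-Pearson bound), and the TRBV15 value there rests on 3 cells.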
